A study of Gallus gallus with 9 samples.

Results

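PAX3, PAX7, MSX1 and MSX2 are 4 transcription factor genes of the neural plate border, the strip of ectoderm between the future central nervous system and the future epidermis. They were taken from the count tables by gene symbol, with earlier results of these data known, and make up 4 of the 16880 genes there. Each symbol matched 1 gene: PAX3 is ENSGALG00000030944, PAX7 is ENSGALG00000043204, MSX1 is ENSGALG00000015013 and MSX2 is ENSGALG00000038848. Single-cell RNA sequencing had been run on all tissue of wild-type chick embryos at the midbrain axial level. The stages were HH5, just after gastrulation, then 1, 4 and 7 pairs of somites (1ss, 4ss and 7ss, the neural folds rising and closing), with 2 libraries each, and HH11 with 1 library. The study's methods describe midbrain slices pooled from several embryos for each library of HH5 to 7ss, so no value there belongs to 1 animal. They do not describe the HH11 library, so its pooling is not known. With 1 library at HH11, an effect of stage and an effect of that library cannot be told apart. The treatment field read N/A for HH5 to 7ss and total RNA for HH11, and no library was labelled as treated.

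As background, BMP, Wnt and FGF signals lay down a border zone whose cells switch on MSX and PAX3/PAX7 family genes together with TFAP2, ZIC and DLX genes. MSX1 and MSX2 encode homeodomain proteins known as repressors and as targets of BMP signalling. PAX3 and PAX7 encode closely related paired-box factors that act upstream of neural crest genes such as FOXD3 and SOX10. In the chick PAX7 is the known early border marker, while the mouse relies more on PAX3. Both PAX genes are also known from the dorsal neural tube and the somites, and both MSX genes from the lateral ectoderm and mesenchyme. FOXD3, SOX21 and DLX5 served to sort cells. FOXD3 is a neural crest specifier that is also active in pluripotent epiblast, SOX21 is a SoxB factor of neural progenitors, and DLX5 is a homeobox gene of non-neural ectoderm and the outer border.

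The 9 libraries kept between 5287 and 18590 cells after filtering, 92708 in all, with 10331167 to 67224887 unique molecular identifiers (UMIs, each standing for 1 captured RNA molecule). The midbrain and forebrain gene OTX2 was present in every library at 53.3 to 79.3 CPM (the gene's UMIs scaled to the usual common total, so that libraries of unlike depth can be compared), whereas the midbrain genes EN1 and PAX2 were at or below 6.63 and 1.62 CPM in all libraries before 7ss. Sums of 4ss replicate 2 correlated with the 7ss libraries at 0.98 and with 4ss replicate 1 at 0.94, while 4ss replicate 1 correlated with the 1ss libraries at 0.98 and 0.99. EN1, however, was at 0.327 CPM in 4ss replicate 2, against 6.63 CPM in 4ss replicate 1 and 27.1 and 76.5 CPM at 7ss. Cells of 4ss replicate 2 also had more mitochondrial UMIs (median 11.5% against 4.46% in replicate 1) and fewer UMIs (median 1312 against 2223). The 4ss pair was thus unlike, and each stage result is given per library. Between 7 and 115 cell barcodes were shared by any pair of libraries. Levels below are 3′ tag counts in CPM and were compared between samples, not between genes.

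PAX7 came on gradually and had the largest fitted log2 change of the 4 genes at 7ss. In the sum of all kept cells it measured 1.21 and 0.871 CPM in HH5 replicates 1 and 2, and 2.52 and 2.98 CPM in the 1ss libraries. The 4ss libraries had 6.99 and 12.05 CPM, those of 7ss 11.9 and 15.8 CPM, and the single HH11 library 29.6 CPM. The pairs of HH5, 1ss and 4ss libraries did not overlap with each other, and the lower 7ss value lay just under 4ss replicate 2, so 4ss and 7ss were not separated beyond their spread. Against HH5, by edgeR's quasi-likelihood test with Benjamini-Hochberg adjustment over 12762 genes, PAX7 at 1ss differed by a log2 of 1.31 that did not pass (SE 0.39, adjusted p = 0.389). The 4ss stage passed with a log2 change of 3.17 (SE 0.40, adjusted p = 0.00891), and so did 7ss with 3.68 (SE 0.40, adjusted p = 0.00167). Without HH5 replicate 2 the 4ss change was 3.02 and its adjusted p 0.0603.

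MSX1 was already present at HH5 and climbed through neurulation. It measured 117 and 76.9 CPM in the HH5 libraries and 110.1 and 177 CPM in those of 1ss. The 4ss libraries followed with 256 and 243 CPM, and the 7ss libraries with 365 and 362 CPM. At HH11 it stood at 211 CPM, below both 4ss and both 7ss libraries. HH5 and 1ss overlapped, while 1ss, 4ss and 7ss formed steps with no overlap, and the 2 libraries of 7ss were almost equal (363 ± 2.07 CPM, SD, n = 2). By edgeR the 7ss stage was higher than HH5 by a log2 of 1.93 (SE 0.29, adjusted p = 0.00534). Neither the 4ss difference of 1.40 (SE 0.29, adjusted p = 0.0640) nor the 1ss difference of 0.56 (SE 0.28, adjusted p = 0.644) passed. The 4ss change passed the threshold of 0.05 with DESeq2 (adjusted p = 0.000849), with no filter on low counts (0.0154), within ectoderm-like clusters (0.0262) and without 4ss replicate 1 (0.04), and the 7ss change did not pass in a fit with a term for the library set in which 4ss replicate 2 stands with 7ss (log2 1.88, adjusted p = 0.184).

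MSX2, the second MSX gene, showed no stage change that passed the test in the sum of all kept cells. It measured 19.3 and 5.42 CPM in HH5 replicates 1 and 2 and 8.70 and 18.1 CPM in the 1ss pair. The 4ss pair had 20.8 and 21.4 CPM, the 7ss pair 24.3 and 18.3 CPM, and the HH11 library 8.83 CPM. The HH5 pair enclosed the 1ss pair and overlapped with the 7ss pair, while both 4ss libraries lay above both HH5 and both 1ss libraries, and the 7ss pair lay above the 1ss pair. Its log2 change at 7ss was 0.76 (SE 0.52, adjusted p = 0.334, edgeR), and it was 2.02 with an adjusted p of 0.0492 without HH5 replicate 1. The 1ss change of 0.06 turned to -0.59 without 1ss replicate 2 and to -0.54 without HH5 replicate 2. Within ectoderm-like clusters MSX2 measured 11.2 and 2.74 CPM at HH5 against 26.9 and 21.8 CPM at 7ss, which did not overlap (log2 change 1.74, adjusted p = 0.0581, edgeR).

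PAX3, the mouse and frog border gene, was close to its floor until 7ss. It was counted in 42 and 12 UMIs in the whole of HH5 replicates 1 and 2 and in 6 and 7 UMIs of the 1ss pair. Counts were 11 and 44 UMIs in the 4ss pair, 101 and 160 in the 7ss pair and 295 in the HH11 library. As levels these were 0.650 and 1.16 CPM for HH5, 0.236 and 0.278 CPM for 1ss, 0.284 and 0.655 CPM for 4ss, and 1.68 and 2.69 CPM for 7ss. The HH11 library had 8.80 CPM (exact Poisson 95% interval 7.83 to 9.87 CPM, counting error only), higher than any earlier library. The 7ss libraries lay above all 6 earlier ones, but the log2 change of 1.42 from HH5 did not pass the test (SE 0.51, adjusted p = 0.0964, edgeR). It passed when either 4ss library was left out (log2 1.45, adjusted p = 0.0364 without replicate 1 and 0.0367 without replicate 2). The 1ss value was lower than HH5 with a log2 difference of -1.70 (adjusted p = 0.492).

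**Figure D1:**
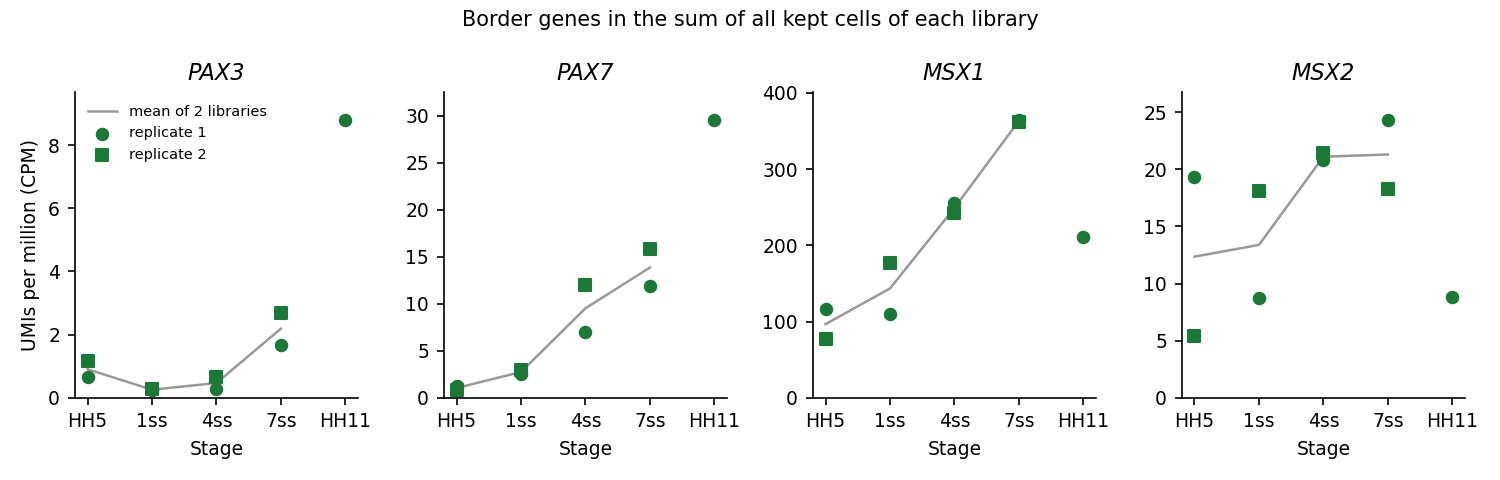
CPM of PAX3, PAX7, MSX1 and MSX2 in the sum of all kept cells of each library, by stage (circles and squares are replicates 1 and 2, the line joins the means of 2 libraries, HH11 has 1 library). PAX7 stepped up from 1.21 and 0.871 CPM at HH5 to 29.6 CPM at HH11, MSX1 peaked at 365 and 362 CPM at 7ss, and the MSX2 pair of HH5 overlapped with those of 1ss and 7ss.

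Of the 4 genes, 0 passed edgeR's test at 1ss, where 0.047% of all genes did (0.0157% higher and 0.0313% lower). PAX7 (0.00787) and PAX3 (0.0215) had an unadjusted p under 0.05 there, as did 1091 of all genes, and DESeq2 called 139 genes but none of the 4 (adjusted p = 0.119 for PAX7 and 0.396 for PAX3). At 4ss 1 of 4 was higher, against 0.501% of all genes called higher, and at 7ss 2 of 4 were higher, against 4.9%. None of the 4 was called lower in these contrasts, beside 0.462% of all genes at 4ss and 6.39% at 7ss. All kept cells entered these sums, so a change in how many cells express a gene and a change in RNA per cell cannot be told apart. Marker sums of cell types moved over the same stages. Summed neural markers (8 genes) went from 163 and 165 CPM at HH5 to 400 and 476 CPM at 7ss, and summed neural crest markers (8 genes) from 38.2 and 58.9 CPM to 140 and 181 CPM. Summed mesoderm markers (9 genes) ranged from 179 to 247 CPM at HH5 and from 269 to 358 CPM at 7ss, and summed non-neural ectoderm markers (8 genes) from 927 to 1061 CPM at HH5 and from 285 to 368 CPM at 7ss. Endoderm markers (7 genes) came to 1351 CPM in HH5 replicate 1, 277 CPM in HH5 replicate 2 and 221 to 250 CPM at 7ss. No gene of these lists was at 0 in the HH5 or 7ss libraries, and their part in the stage changes was not tested.

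The share of cells with at least 1 UMI, once every cell had been thinned to 2000 UMIs, rose from HH5 to 7ss for PAX7 and MSX1 as their levels did. PAX7 was seen in 0.21% and 0.276% of cells at HH5 and in 0.607% and 0.666% of cells at 1ss. The shares were 1.25% and 2.14% in the 4ss libraries, 2.01% and 2.68% in the 7ss libraries and 4.88% in the HH11 library (262 of 5374 cells). MSX1 was seen in 16.2% and 10.9% of HH5 cells, 11.4% and 17.8% of 1ss cells, 23.1% and 23.7% of 4ss cells and 35.7% and 36.0% of 7ss cells. The 2 libraries at 7ss again stood above all others, and HH11 at 23.9% was level with 4ss. MSX2 stayed between 1.22% and 3.90% throughout. PAX3 was seen in 0.124% and 0.332% of cells at HH5, in 0 of 3131 cells of 1ss replicate 1, which allows a share of up to 0.0958%, and in 1 of 3151 cells of 1ss replicate 2. PAX3 returned to 0.257% and 0.480% at 7ss and reached 1.49% at HH11. By share its 7ss and HH5 pairs overlapped, which they did not by CPM.

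Free RNA in the droplets carried the same genes. Droplets with too few UMIs to be cells held MSX1 at 71.7 and 50.5 CPM at HH5, 91.2 and 139 CPM at 1ss, 174 and 180 CPM at 4ss and 292 and 265 CPM at 7ss. Cells held more in each of these libraries. At HH11 the droplets held 237 CPM of MSX1 (327 UMIs), above the 211 CPM of cells. MSX2 was higher in cells than in droplets in every library. PAX7 was at 12.5 and 10.8 CPM in the empty droplets of 7ss replicates 1 and 2 and at 17.4 CPM in those of HH11, so in 7ss replicate 1 it was no higher in cells (11.9 CPM). PAX3 was at 1.56 and 2.53 CPM in the empty droplets of 7ss (4 and 7 UMIs) and at 10.9 CPM in those of HH11 (15 UMIs). These values were close to its level in cells at 7ss. At HH11 the droplet value was nominally above that of cells, from too few UMIs to rank them. Empty droplets of HH5 held 3 and 0 UMIs of PAX3 (1.27 and 0 CPM), and those of 1ss and 4ss held 1 UMI each (0.274 to 0.363 CPM). On such counts HH5 and 7ss droplets could not be ranked, and only HH11 stood clearly higher. In HH5 replicate 1, both 1ss libraries and 4ss replicate 1 the droplet value of PAX3 was nominally above that of cells. As a check, endothelium and blood-like cells, which should lack these genes, were read at the same 2000 UMIs (their median before thinning was 1866.5 UMIs over all libraries). There MSX1 was seen in 5.80% and 7.14% of 4ss cells, 5.05% and 1.08% of 7ss cells and 2.41% of HH11 cells, all below the share in all cells. PAX7 was seen there in 0 of 69 and 1 of 112 cells of 4ss, 0 of 99 and 1 of 93 cells of 7ss and 0 of 83 cells of HH11, and PAX3 in none of these cells. At HH5 that cell class had no cells of this depth, and the HH5 levels of PAX3 and PAX7 could not be set against it.

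**Figure D2:**
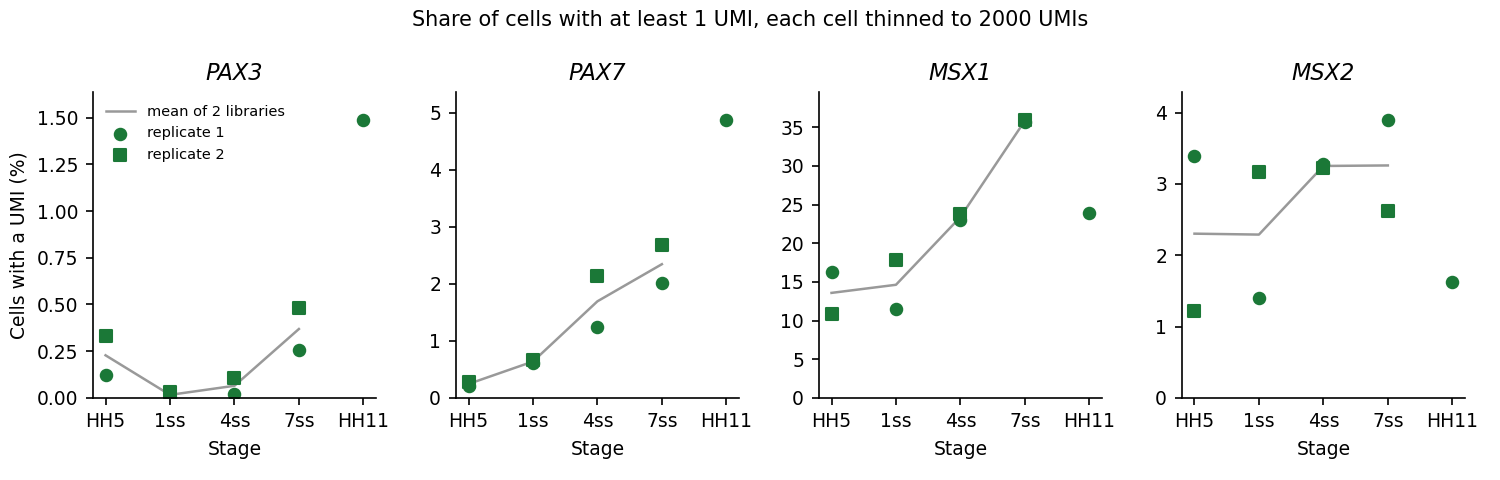
Share of cells with at least 1 UMI of each gene, in percent, after every cell was thinned to 2000 UMIs (symbols as in the plot of levels by stage). MSX1 rose from 16.2% and 10.9% at HH5 to 35.7% and 36.0% at 7ss, and PAX3 stayed under 0.5% until HH11.

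The question then was how the border genes were spread over cells with FOXD3, SOX21 or DLX5. Cells were sorted by the UMIs they carried: a FOXD3 cell had at least 1 UMI of FOXD3 and none of SOX21 or DLX5, and SOX21 and DLX5 cells were defined in the same way. FOXD3 cells by this rule were few, with 68 and 39 cells in the HH5 libraries, 14 and 8 in those of 1ss, 9 and 49 in those of 4ss, 132 and 261 in those of 7ss and 30 in HH11. All cells with a FOXD3 UMI numbered 246 and 64 at HH5, 33 and 23 at 1ss and 22 and 96 at 4ss. There were 209 and 493 at 7ss and 100 at HH11, so the rule left many out. In HH5 replicate 1 the median was 8911 UMIs over all 246 and 5486.5 UMIs over the 68 used. SOX21 cells numbered 536 to 4157 and DLX5 cells 417 to 1654 per library. The rule left out cells with both genes. In HH5 replicate 1 it kept 2415 of 3309 cells with a SOX21 UMI and 1654 of 2425 with a DLX5 UMI. Of the 69 cells with a PAX7 UMI in that library, before thinning, 49.3% carried SOX21 and 47.8% DLX5. All kinds were drawn from all kept cells, not from ectoderm alone. In HH5 replicate 1 the endoderm-like cluster held 11.1% of SOX21 cells and the early mesoderm-like cluster 10.3% of DLX5 cells. DLX5 cells of HH11 held 547 CPM of summed non-neural ectoderm markers, 440 CPM of mesoderm and 408 CPM of neural crest markers. Sums of under 50 cells were left out of the tests, which left FOXD3 sums from HH5 replicate 1 and both 7ss libraries. Their summed neural crest markers (SOX10, SNAI2, SOX9, ETS1, TFAP2B, SOX8, CDH7 and NR2F1) came to 48.9 CPM in HH5 replicate 1 and to 793 and 967 CPM at 7ss, with SOX10, TFAP2B and NR2F1 at 0 in HH5 replicate 1. CDH7 and NR2F1 were at 0 in the FOXD3 cells of 7ss replicate 1, and 0 of these markers were at 0 in 7ss replicate 2. By the summed level the label of neural crest fitted the FOXD3 cells of 7ss better than those of HH5. The FOXD3 cells of HH5 replicate 1 also held 849 CPM of summed notochord markers (5 genes, none at 0), against 69.1 CPM in SOX21 cells of that library and 18.9 and 138 CPM in FOXD3 cells at 7ss. The part of those cells in the FOXD3 differences below was not tested.

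At 4ss and 7ss PAX7 had its highest level in FOXD3 cells. At 7ss it measured 62.6 and 66.1 CPM in FOXD3 cells, 18.1 and 23.7 CPM in DLX5 cells and 6.27 and 10.4 CPM in SOX21 cells, with no overlap between the 3 kinds. The FOXD3 cells of HH5 replicate 1 held none: 0 UMIs of PAX7 in 68 cells, and 0 in the 107 FOXD3 cells of both HH5 libraries, which allows up to 5.50 CPM. In the small 4ss sums that stayed out of the tests it was already 52.7 and 75.7 CPM, from 5 and 37 UMIs. In the HH11 library PAX7 was higher in SOX21 cells (36.7 CPM) than in DLX5 cells (17.1 CPM), the reverse of their order at 7ss. The 17.0 CPM of the 30 FOXD3 cells rested on 3 UMIs, too few to place them in an order. Empty droplets of HH11 held 17.4 CPM of PAX7, level with the DLX5 and FOXD3 values.

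In 1 fit over the sums of HH5 to 7ss, where FOXD3 sums came only from HH5 replicate 1 and both 7ss libraries, PAX7 was higher in FOXD3 than in SOX21 cells by a log2 of 2.78 (SE 0.26, adjusted p = 1.46e-05), higher in FOXD3 than in DLX5 cells by 1.64 (SE 0.26, adjusted p = 0.000811), and higher in DLX5 than in SOX21 cells by 1.14 (SE 0.18, adjusted p = 0.000145), by edgeR with library as a block over 10407 genes. The last of these had an adjusted p of 0.0653 once cells were thinned to 2000 UMIs, with a log2 difference of 1.06. In the single libraries PAX7 of DLX5 cells lay above that of SOX21 cells in 7 of the 8 libraries from HH5 to 7ss, the exception being HH5 replicate 2 with 0.630 against 2.04 CPM. FOXD3 cells were deeper than SOX21 cells at 7ss (medians of 9899 and 8474 against 4086 and 3765 UMIs), and after thinning to 2000 UMIs, which left FOXD3 sums from both 7ss libraries only, the lead of FOXD3 over SOX21 cells was 3.73 for PAX7 (adjusted p = 7.52e-05) and 3.90 for MSX2 (adjusted p = 0.000678).

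MSX2 had the largest fitted log2 difference between DLX5 and SOX21 cells of the 4 genes. DLX5 cells held 32.9 and 8.19 CPM in the HH5 pair, 20.7 and 32.6 CPM in the 1ss pair, 31.0 and 61.9 CPM in the 4ss pair and 96.9 and 83.3 CPM in the 7ss pair. SOX21 cells never rose above 7.02 CPM, ended at 3.09 and 2.20 CPM at 7ss, and lay below the DLX5 cells of the same library in all 8. FOXD3 cells held 6.98 CPM in HH5 replicate 1, from 3 UMIs, and 59.7 and 47.3 CPM at 7ss. The log2 difference from SOX21 cells was 3.69 for DLX5 cells (SE 0.32, adjusted p = 3.91e-07, edgeR) and 3.15 for FOXD3 cells (SE 0.53, adjusted p = 0.00234), the latter 2.77 with an adjusted p of 0.0810 without 7ss replicate 2. FOXD3 and DLX5 cells were not separated (log2 -0.54, SE 0.46, adjusted p = 0.505), although within ectoderm-like clusters the difference of -0.71 passed (adjusted p = 0.0183). That restricted fit had FOXD3 sums from both 7ss libraries only, without HH5 replicate 1, so the 2 fits differ in libraries as well as in cells.

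Among the marker cells MSX1 began on the DLX5 side and then spread. In DLX5 cells it measured 228 and 175 CPM in the HH5 pair, 321 and 453 CPM in the 1ss pair, 366 and 442 CPM in the 4ss pair and 873 and 720 CPM in the 7ss pair. In SOX21 cells it started at 51.1 and 24.5 CPM, was 37.4 and 54.4 CPM at 1ss, and reached 191 and 171 CPM in the 4ss pair, then 338 and 353 CPM in the 7ss pair. DLX5 and SOX21 cells did not overlap at any of the 4 stages. The log2 lead of DLX5 cells was 1.90 (SE 0.24, adjusted p = 1.89e-05, edgeR). FOXD3 cells held 30.3 CPM in HH5 replicate 1, where their notochord markers were high, and 736 and 441 CPM at 7ss, and their fitted difference from SOX21 cells, 0.86 (SE 0.37, adjusted p = 0.203), did not pass. It passed with FOXD3 sums of at least 20 cells admitted (log2 1.30, adjusted p = 0.0308) and with all barcodes (log2 1.29, adjusted p = 0.0470).

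PAX3 was low in every kind before HH11. At 7ss it measured 5.10 and 4.41 CPM in FOXD3 cells, from 7 and 11 UMIs, against 1.25 and 2.71 CPM in SOX21 cells and 1.81 and 3.88 CPM in DLX5 cells. The FOXD3 values lay above the others at that stage. In the same fit none of its differences passed (FOXD3 against SOX21 cells 1.25, SE 0.42, adjusted p = 0.0921, edgeR). At HH11 PAX3 stood at 11.1 CPM in SOX21 cells and 10.4 CPM in DLX5 cells, both close to the 10.9 CPM of the empty droplets of that library.

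**Figure D3:**
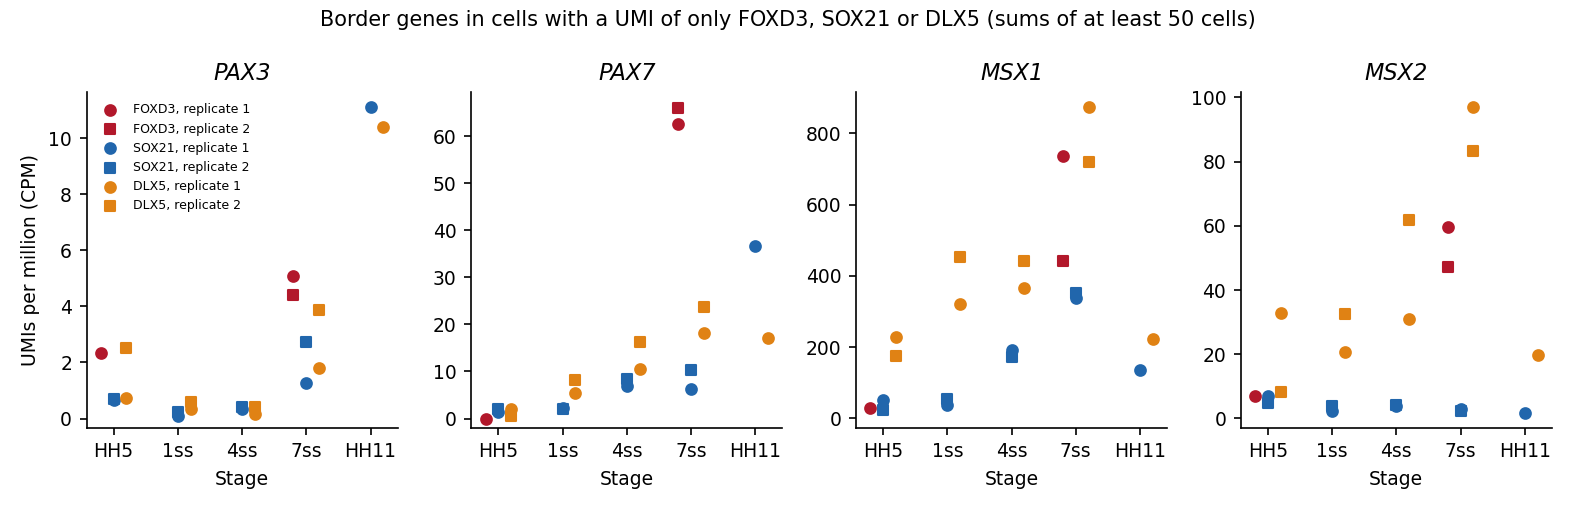
CPM of each gene in cells with a UMI of only FOXD3 (red), SOX21 (blue) or DLX5 (orange), by stage, for sums of at least 50 cells (circles and squares are replicates 1 and 2). At 7ss PAX7 lay at 62.6 and 66.1 CPM in FOXD3 cells against 6.27 and 10.4 CPM in SOX21 cells, while MSX2 was highest in DLX5 cells at 96.9 and 83.3 CPM.

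The same order was seen in shares of cells at 2000 UMIs. At 7ss PAX7 was seen in 21.2% and 14.1% of FOXD3 cells (52 and 121 cells), 3.43% and 3.50% of DLX5 cells and 0.446% and 1.55% of SOX21 cells. MSX2 was seen in 9.62% and 9.09% of FOXD3 cells, 17.2% and 17.5% of DLX5 cells and 0.357% and 0.258% of SOX21 cells. MSX1 reached 70.4% and 61.5% of DLX5 cells and 67.3% and 49.6% of FOXD3 cells, against 35.1% and 37.4% of SOX21 cells.

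Read against the background, 2 of the 4 genes were higher in FOXD3 than in SOX21 cells, where 2.73% of all genes were, and 0 were lower, beside 3.55%. In DLX5 against SOX21 cells 3 of 4 were higher, where 17.9% of genes were, and 0 lower, beside 16.6% (34.5% in either direction). For FOXD3 against DLX5 cells 1 of 4 was higher, against 5.46% of genes, and 0 lower, beside 7.53%. The contrasts share the SOX21, DLX5 and FOXD3 sums, so their counts are not independent of each other.

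The lead of DLX5 over SOX21 cells changed between early (HH5 and 1ss) and late (4ss and 7ss) libraries for both MSX genes, in opposite directions. For MSX1 it shrank by a log2 difference of -1.56 (SE 0.19, adjusted p = 0.000328, edgeR), as MSX1 in SOX21 cells went from 24.5 to 54.4 CPM early to 171 to 353 CPM late. For MSX2 it grew by 1.79 (SE 0.42, adjusted p = 0.0205), as DLX5 cells went from 8.19 to 32.9 CPM early to 31.0 to 96.9 CPM late while SOX21 cells stayed under 7.1 CPM. For PAX7 and PAX3 the lead changed by -0.05 and -0.30, with adjusted p values of 0.978 and 0.912. In this contrast 1 of 4 genes was called higher and 1 lower, beside 3.15% and 2.59% of all genes (5.75% in either direction). The MSX2 change was 0.37 (adjusted p = 0.664) within ectoderm-like clusters, where SOX21 cells held 1.0 and 1.6 CPM at HH5, and it also missed the threshold with DESeq2 (adjusted p = 0.0841), with all barcodes (0.103), after thinning (0.0554) and without HH5 replicate 1 (log2 1.44), 7ss replicate 1 (1.56) or 7ss replicate 2 (1.48). The MSX1 change kept its call in each of those settings. Both kinds of cell sat in other clusters late than early. SOX21 cells lay in cluster 4 in HH5 replicate 1 (73.8%) and in cluster 1 in HH5 replicate 2 (84.0%), both 1ss libraries (94.3% and 93.9%) and 4ss replicate 1 (93.2%), whereas in 4ss replicate 2 and at 7ss 0 were in cluster 1 and most were in clusters 2, 5 and 0. DLX5 cells moved likewise, with 72.3% in cluster 4 in HH5 replicate 1, 79.2% to 88.5% in cluster 1 in HH5 replicate 2, both 1ss libraries and 4ss replicate 1, and none there in 4ss replicate 2 or at 7ss. In 4ss replicate 1, whose cells lay in the early cluster, SOX21 cells held 191 CPM of MSX1, above all 4 early libraries, and DLX5 cells held 31.0 CPM of MSX2, within their range. The part of this shift in either change was not tested. For FOXD3 cells the early arm was the single sum of HH5 replicate 1, assumed to vary like the other sums, and 0 of 4 changes passed, beside 0.471% of all genes. With PAX7 at 0 UMIs early its fitted change is no bound. PAX7 and MSX2 had unadjusted p values of 0.0442 and 0.00840 there, and DESeq2 called 96 genes in all.

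**Figure D4:**
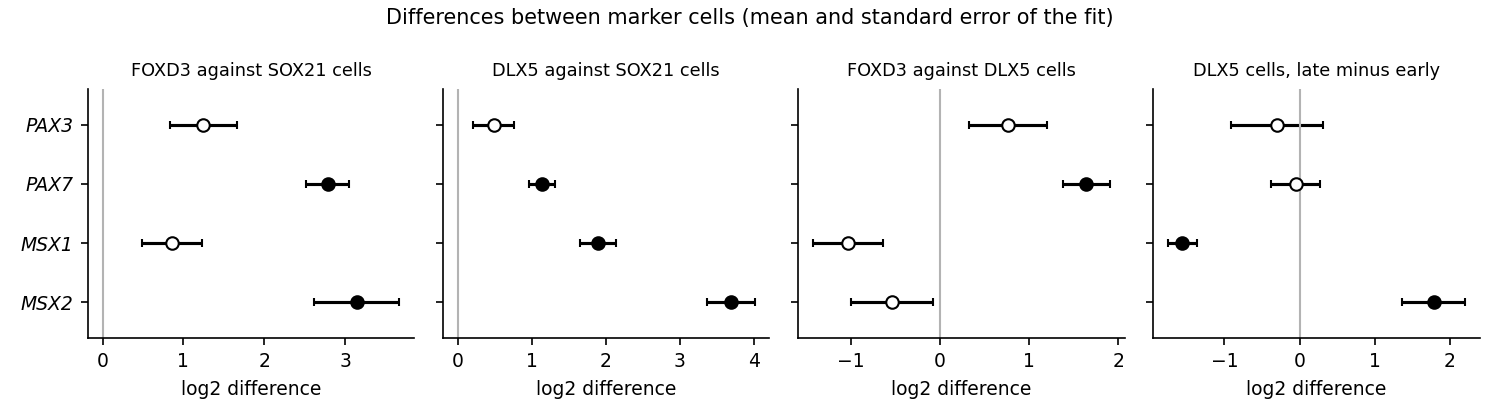
Fitted log2 differences of each gene between marker cells, and the late minus early change of the DLX5 lead over SOX21 cells (points and bars are the estimate and its standard error, filled points passed an adjusted p of 0.05). MSX1 lies at -1.56 and MSX2 at 1.79 in the last panel.

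In single cells the border genes met in part. At 2000 UMIs, 70.4% and 68.8% of cells with a PAX7 UMI at 7ss also had an MSX1 UMI (88 of 125 and 119 of 173 cells), against 35.0% and 35.1% of cells without PAX7. At 4ss the figures were 70.0% and 75.9% against 22.5% and 22.6%, and at HH11 54.6% against 22.4%. Clopper-Pearson 95% intervals of the PAX7 cells lay above the other share in all 5 of these libraries (61.6 to 78.2% in 7ss replicate 1), with cells of 1 library not being replicates. MSX2 cells also carried MSX1 more often than other cells did in all 9 libraries, for example in 59.7% and 56.2% at 7ss against 34.7% and 35.4%. PAX3 and PAX7 were rarely caught together: 7 of 80 PAX3 cells at HH11 had PAX7 (8.75%, interval 3.59 to 17.2%), against 4.82% of the rest, which lies inside that interval. Cells with any of the 4 genes made up 18.7% and 12.2% of cells at HH5 and 37.9% and 38.0% at 7ss, and 0 cells in any library had UMIs of all 4 at this depth.

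Read from the other side, PAX7 cells carried FOXD3 more often than other cells did at 7ss: 8.80% and 10.4% of them had a FOXD3 UMI (11 and 18 cells) against 0.737% and 2.10% of other cells. At HH11 1 of 262 did. MSX2 cells were poor in SOX21 in every library, at 1.15% to 7.00% against 11.8% to 31.3% of other cells. All kept cells entered these shares, mesoderm-like cells included. MSX2 cells carried DLX5 in 18.6% and 13.6% at HH5 and in 20.5% and 11.0% at 1ss. Other cells did so in 12.1% and 12.6% at HH5 and in 7.26% and 7.77% at 1ss. MSX1 cells were poor in SOX21 at HH5 and 1ss, at 7.61% to 11.5% against 12.2% to 22.0%, but not at 7ss, at 18.0% and 31.8% against 18.2% and 29.9%. The shares were 16.8% and 14.4% against 18.5% and 19.8% in the 4ss pair, and at HH11 10.3% against 17.0%.

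Clusters were built with the 4 border genes, FOXD3, SOX21 and DLX5 left out of the genes used, and their levels are a description with no test. PAX7 was highest in the neural-like cluster of HH11 (51.3 CPM, led by PTN, EN2 and EN1). Unnamed cluster 7 had 24.1 CPM at HH11. Its 34.9 CPM in 7ss replicate 2 came from few, shallow cells and gives it no rank. HH11 gave 97.5% of its cells, and their median was 1286 UMIs. It was not counted as ectoderm-like because endothelium and blood markers scored best, yet FOXI2, EN1 and EN2 were among its leading genes. It held 25.7% of the SOX21 and 28.0% of the DLX5 cells of HH11. The neural-like cluster of 4ss and 7ss had 23.3 ± 3.30 CPM (SD, n = 3 libraries), with HES5, DRAXIN, TFAP2B and PAX6 among its leading genes. Unnamed cluster 0, also not counted as ectoderm-like, had a mean of 10.6 CPM and 37.0 CPM at its highest, the latter on few UMIs. PAX7 was near 0 in mesoderm-like, endoderm-like and notochord-like clusters, whose means did not exceed 1.15 CPM. At 7ss 71.0% and 70.5% of all PAX7 UMIs came from that neural-like cluster, which held 13.0% and 13.2% of the cells and 42.1% and 41.8% of all UMIs. That cluster, number 5, was a mixture of deep cells, with a median of 13977 UMIs, 8.80 times that of the libraries its cells came from. It held 56.1% and 44.1% of the FOXD3 cells, 40.9% and 34.2% of the DLX5 cells and 36.3% and 27.3% of the SOX21 cells of 7ss, so its levels do not stand for neural cells alone. PAX3 had 51.5% and 70.6% of its 7ss UMIs in the same cluster. At HH11 PAX3 measured 12.5 CPM in the neural-like cluster and 18.5 CPM in unnamed cluster 0, whose leading genes were mostly mitochondrial. Cluster 0 held only 1.98% of the SOX21 and 2.00% of the DLX5 cells of HH11. Its value rests on few UMIs and is not ranked against the neural-like cluster.

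MSX1 was spread more widely. It was highest in an unnamed cluster led by NKX6-2, WNT4 and LMO1 (441 ± 74.9 CPM, n = 3) and in the 4ss and 7ss neural-like cluster (428 ± 97.6 CPM, n = 3), which overlapped. It also reached 471 and 439 CPM at 7ss in cluster 9, an unnamed ectoderm-like cluster, where 4ss replicate 2 had 151 CPM. The mesoderm-like cluster of the early libraries rose from 70.3 and 24.9 CPM at HH5 to 274 CPM in 4ss replicate 1, whereas the later mesoderm-like cluster fell from 132 CPM in 4ss replicate 2 to 32.8 and 26.8 CPM at 7ss. Endoderm-like cells held 167 and 108 CPM at HH5, 141 and 128 CPM at 1ss, and 70.0 and 72.6 CPM at 4ss. Their HH5 mean of 138 CPM lay above that of ectoderm-like cluster 1 (78.7 CPM). It also lay above ectoderm-like cluster 4 (115 CPM, HH5 replicate 1 alone). Notochord-like cells had the lowest MSX1, 19.6 ± 5.40 CPM (n = 3).

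MSX2 had its own pattern. Its highest means were in cluster 9 (43.1 ± 11.1 CPM, n = 3) and in the early mesoderm-like cluster (40.8 ± 18.9 CPM, n = 5), which overlapped, followed by the later mesoderm-like cluster (29.8 ± 19.3 CPM, n = 3). The mesoderm-like cells gave 75.2% of the MSX2 UMIs of 1ss replicate 2 and 69.9% of those of 4ss replicate 1. At 7ss cluster 5, the neural-like cluster that mixed the 3 kinds of cell, gave 46.3% and 57.2% and the later mesoderm-like cluster 20.6% and 10.4%. Within ectoderm-like clusters alone the lead of DLX5 over SOX21 cells in MSX2 was 5.22 on the log2 scale (adjusted p = 1.32e-12, edgeR).

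**Figure D5:**
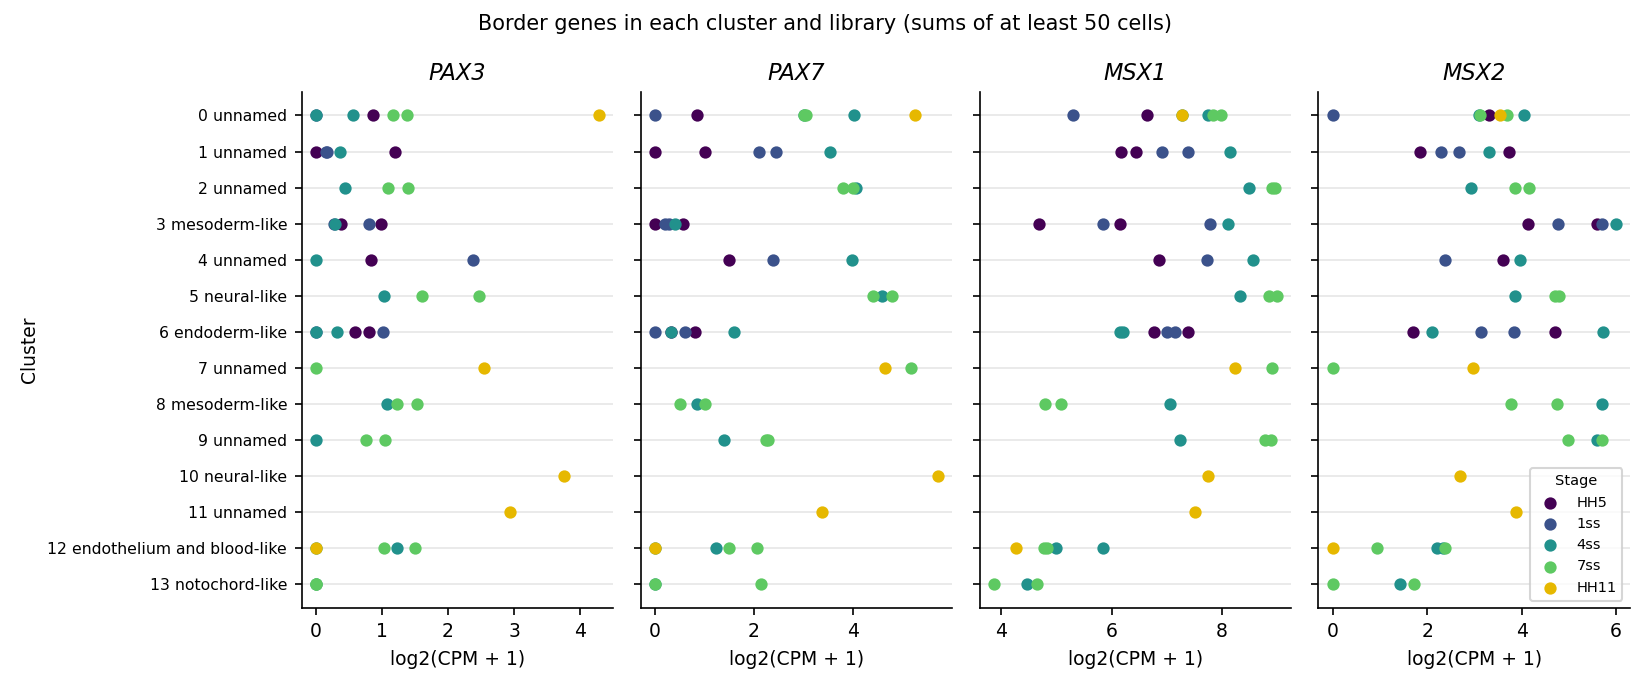
Level of each gene as log2(CPM + 1) in each cluster and library with at least 50 cells, coloured by stage (clusters are numbered, and named where the markers allowed it). PAX7 did not exceed a mean of 1.15 CPM in the mesoderm-like, endoderm-like and notochord-like clusters shown, while MSX2 was among its highest in the mesoderm-like cluster 3 and in cluster 9.

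The genes whose levels ran most like each member were sought over 50 sums of a library and a cluster, among 7111 genes. These sums share libraries and depth, so the correlations are a description. For PAX7 they were TFAP2B, a border and crest AP-2 factor (r = 0.85), the ligand gene WNT6 (0.82), the zinc finger genes SP8 (0.78) and ZFHX4 (0.77) and KDM8 (0.77). For MSX1 they were WNT6 (0.73), MOXD1 (0.72), the LIM homeobox gene LMX1B (0.72), TKT (0.71) and JAKMIP2 (0.71). PAX3 was followed by TNFRSF19 (0.74) and WNT1 (0.72), a dorsal midline ligand, then RBMXL1, PPP4R3A and PHF20L1 at 0.68 to 0.69. MSX2 was followed by CPM, a carboxypeptidase gene (0.70), NKX2-3 (0.68), LIN7A (0.67), MAPK12 (0.67) and PKP2 (0.67). Among the members themselves r was 0.68 for PAX7 and MSX1, 0.53 for PAX3 and PAX7, 0.44 for MSX1 and MSX2, and 0.04 for PAX7 and MSX2.

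Other genes of the border network were read from lists given by counts. Of 16 border partners, 2 were called higher at 7ss than at HH5 and 5 lower, with a median log2 change of -0.49 beside -0.04 over all genes, of which 4.9% were called higher and 6.39% lower. TFAP2B rose with PAX7 by a log2 of 5.94 (SE 0.41, adjusted p = 0.000233, edgeR), from 0.509 ± 0.309 CPM at HH5 to 36.9 ± 4.64 CPM at 7ss (SD, n = 2), and CSRNP1, a gene for a nuclear protein, rose by 1.74. GATA2, a non-neural ectoderm factor, fell by 2.96 and PRDM1 by 2.39. Against that background of 4.9% and 6.39%, 5 of 14 crest specifiers were higher and 0 lower (median 1.01), among them WNT1 (3.16), SOX10 (3.73), SOX8 (1.80) and WNT3A (3.06). Of the other PAX genes 3 of 4 tested were higher, PAX6 (3.16), PAX2 (5.20) and PAX1 (4.73), which are known from neural tube, midbrain and pharyngeal endoderm. Of 10 BMP pathway genes 0 were higher and 1 lower, the inhibitor SMAD6 at -1.06, and of 6 Wnt targets 3 were higher, NKD1, SP5 and AXIN2 by 1.96, 1.5 and 1.14.

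In FOXD3 cells, where PAX7 and MSX2 were high, 4 of 16 border partners and 9 of 14 crest specifiers were higher than in SOX21 cells and 0 were lower, beside 2.73% and 3.55% of all genes. TFAP2B was higher by 4.82 (SE 0.39), TFAP2A by 4.05, SOX9 by 2.56, ETS1 by 3.56 and SOX10 by 4.51 on the log2 scale. At 7ss TFAP2B measured 248 ± 14.8 CPM in FOXD3 cells, 80.3 ± 1.33 CPM in DLX5 cells and 5.65 ± 1.24 CPM in SOX21 cells, the same order as PAX7. In DLX5 cells 9 of 16 border partners were higher and 3 lower than in SOX21 cells, beside 17.9% and 16.6% of all genes. DLX6, the linked paralogue of DLX5, was higher by 5.77, GATA2 by 3.87, GATA3 by 3.96 and TFAP2A by 3.91. Of 10 BMP pathway genes 8 were higher in DLX5 cells and 0 lower (median 1.32 beside -0.01 over all genes), among them the pathway targets BAMBI (2.40) and ID3 (1.89), SMAD6 (1.28) and the ligand gene BMP4 (2.07). BMP4 measured 31.6 ± 4.95 CPM in DLX5 cells and 5.50 ± 1.16 CPM in SOX21 cells at 7ss, a gap in the same direction as that of both MSX genes. FOXD3 cells also had 5 of these 10 genes higher than SOX21 cells and 0 lower (median 0.82), beside 2.73% and 3.55% of all genes. Against DLX5 cells, FOXD3 cells had 6 of the 10 lower and 1 higher, beside 7.53% and 5.46% of all genes.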

How the data were processed

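Single-cell suspensions of chick midbrain-level tissue had been sequenced by the authors with 10x 3′ chemistry and deposited as UMI counts per gene and barcode, per the file headers from Cell Ranger 6.1.1 (HH11 from 5.0.0). The submitters' notes name the GRCg6a build and Seurat 4. Counts had not been normalized. Barcodes with 200 to 4000 genes and at most 40% mitochondrial UMIs were kept, after doublets were removed by simulated-doublet scores at 0.8% per 1000 barcodes, which left 92708 of 107749. A mitochondrial limit of 0.4%, as written in the study's methods, would have left 0.0128 to 11.4% of barcodes per library and was not used. Free RNA was measured in droplets of at most 100 UMIs and not subtracted.

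UMIs were summed per library, per cluster (scanpy 1.11.5, 2000 variable genes, Leiden resolution 0.2) and per marker kind (at least 50 cells). A cluster, named or unnamed, counted as ectoderm-like where neural, non-neural ectoderm or neural crest markers scored best and its leading genes were not mostly mitochondrial. That held for 5367 of 18590 kept cells of 4ss replicate 2 and 6209 of 9022 of 4ss replicate 1. Sums were tested with edgeR 4.0.16 (quasi-likelihood, TMM, R 4.3.3) at an adjusted p of 0.05, with DESeq2 1.42.0 as an alternative. The study's methods describe the libraries of a stage as independent samples, each from pooled embryos. In the stage fit p-values measure the spread between these libraries. In the marker fits library was a block, so there they measure how differences between kinds of cell varied over libraries. HH11, with 1 library, entered no test. Intervals and floors (3 counts) cover counting error only. Shares were read after thinning each cell to 2000 UMIs, and shallower cells (29.6 to 65.8% per library) were left out. The scripts were tested on simulated data.

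The members and gene lists were chosen with earlier results of these data known. Genes named were the 4 members, the 5 most correlated with each, over log2(CPM + 1) of library and cluster sums (planned for named classes, most ectodermal clusters having stayed unnamed), and at most 4 per list, by adjusted p. The leading genes of cluster 9 are not reported here. Alternatives covered scaling, filters, free RNA subtraction, all barcodes, ectoderm-like cells, blocks, thinning and leaving out each library.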

Additional observations from a re-analysis of the deposited data

Results flagged for a closer look

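The changes of MSX1 and MSX2 between groups of stages stood out, both in the lead of DLX5 over SOX21 cells and both by the test of the difference itself. For MSX1 the lead was smaller in the 4ss and 7ss libraries than in the HH5 and 1ss libraries by a log2 difference of -1.56 (SE 0.19, adjusted p = 0.000328, edgeR), a call lost without the library block (-1.58). For MSX2 it was larger by 1.79 (SE 0.42, adjusted p = 0.0205, edgeR), but by 0.37 (adjusted p = 0.664) within ectoderm-like clusters, and its call was also lost with DESeq2, with all barcodes, without the library block, after thinning and without HH5 replicate 1 (1.44), 7ss replicate 1 (1.56) or 7ss replicate 2 (1.48). In the 4 early libraries DLX5 cells held 175 to 453 CPM of MSX1 and 8.19 to 32.9 CPM of MSX2, and in the 4 late libraries 366 to 873 CPM and 31.0 to 96.9 CPM. DLX5 cells lay mostly in clusters 1 and 4 in the early libraries, and 88.5% of those of 4ss replicate 1 were still in cluster 1. At 7ss none were in cluster 1, 40.9% and 34.2% were in cluster 5 and 38.9% and 43.5% in cluster 9, an unnamed ectoderm-like cluster. SOX21 cells changed clusters between the same libraries, and the part of these shifts in either change was not tested.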

How the results depend on the processing

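Replicate numbers did not pair the libraries: deviations of same-numbered libraries correlated at -0.36 to 0.11. With the replicate number as a block the PAX7 change was 3.06 at 4ss (adjusted p = 0.0151, edgeR) and 3.6 at 7ss (0.00308), the MSX1 change at 7ss was 1.93 (0.0114), and no call of the 4 genes changed.

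For stages, MSX1 at 4ss passed with no filter (1.40), DESeq2 (1.41) and ectoderm-like cells (1.59), MSX1 at 7ss did not with the library set term (1.88), and MSX2 at 1ss turned to -0.64 in ectoderm-like cells. Genes called at 1ss (6) came to 40 with no filter, 139 with DESeq2, 10 with all barcodes, 2 in ectoderm-like cells and 28 with the set term. At 4ss (123) they came to 268, 439 and 70 with no filter, DESeq2 and ectoderm-like cells, and at 7ss (1440) to 2221 with DESeq2 and 66 with the set term.

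For FOXD3 against SOX21 cells MSX1 passed with all barcodes (1.29) and sums of 20 cells (1.30), and PAX3 with all barcodes (1.2). Without the library block DLX5 against SOX21 cells lost MSX1 (1.57) and PAX7 (1.09), FOXD3 against DLX5 cells lost PAX7 (2.08), and thinning lost PAX7 for DLX5 against SOX21 cells (1.06). FOXD3 against DLX5 cells gained MSX1 with no filter (-1.07) and DESeq2 (-1.42) and MSX2 in ectoderm-like cells (-0.71). Genes called for FOXD3 against SOX21 (653) came to 1082 with all barcodes, 1083 in ectoderm-like cells, 177 without the block and 125 thinned. For DLX5 against SOX21 (3591) they came to 1054 without the block and 1217 thinned, and for FOXD3 against DLX5 (1352) to 2076 with all barcodes, 472 without the block and 182 thinned.

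For the late minus early change of DLX5 cells, MSX1 lost its call without the block (-1.58), and MSX2 with DESeq2 (1.82), all barcodes (1.52), ectoderm-like cells (0.37), no block (1.90) and thinning (2.26). PAX7 turned to 0.019 with free RNA subtraction and 0.30 thinned, and PAX3 to 0.18 with all barcodes. Genes called (598) came to 940 with no filter, 6 without the block and 116 thinned. For FOXD3 cells MSX2 passed with no filter (3.65), and genes called (49) came to 215 with no filter, 96 with DESeq2, 16 with all barcodes, 1 without the block and 31 with sums of 20 cells. That change could not be fitted thinned, in ectoderm-like cells or without HH5 replicate 1, and PAX3 was too low for the thinned fits.

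The 7ss minus HH5 share of cells moved for PAX3 (0.141 points) to 0.57 unthinned, for PAX7 (2.10) to 1.00 at 1000 UMIs, 3.72 unthinned and 2.55 in ectoderm-like cells, and for MSX1 (22.3) to 14.8, 17.3 and 29.9. MSX1 fell to 11.5 CPM in endothelium and blood-like and 1.15 CPM in notochord-like cells with free RNA subtraction, and PAX3 in notochord-like cells was 0.653 CPM at a finer clustering.

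Leaving out 1 library at a time gave ranges of 2.63 to 3.55 for PAX7 and 1.12 to 1.74 for MSX1 at 4ss, -0.59 to 1.30 for MSX2 at 1ss, 0.16 to 2.02 for MSX2 and 0.95 to 1.76 for PAX3 at 7ss, and 2.77 to 3.61 for MSX2 in FOXD3 against SOX21 cells. For the late minus early change of DLX5 cells they were 1.44 to 2.11 for MSX2 and -0.33 to 0.34 for PAX7. Genes called ranged from 0 to 28 at 1ss, 38 to 1031 at 4ss, 177 to 3039 at 7ss, 52 to 945 for FOXD3 against SOX21, 265 to 1473 for FOXD3 against DLX5, 139 to 963 for the DLX5 change and 5 to 69 for the FOXD3 change. Where no construction of the alternative shows it, the cause was not tested. Depth limited PAX3 most, with 6 to 44 UMIs per library at 1ss and 4ss.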
